A study of Mus musculus with 16 samples.

Results

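The effect of α-amanitin, a mushroom toxin that blocks RNA polymerase II, was measured in BBB mouse two-cell embryos. In BBB embryos the ooplasm, the maternal pronucleus and the paternal pronucleus were all of the B6 strain. The comparison takes 8 of the 16 one-colour arrays of the series, 4 of untreated BBB embryos and 4 of BBB embryos given amanitin (spelled α-amantin in the labels), and every probe set that is not a control. The other 8 arrays hold BCB embryos, untreated or with amanitin, whose maternal pronucleus was C3H in B6 ooplasm beside a B6 paternal pronucleus. They entered the fit for the spread between arrays and 1 comparison of effects. The labels give neither the dose and hours of treatment nor the number of embryos per array, and they do not say whether the 4 samples of a group came from separate litters or days, so p-values measure the spread between these samples.

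The mouse embryo starts with RNA stored by the growing oocyte. During the late one-cell stage and above all at the two-cell stage it switches on its own genome, while much of the stored RNA is degraded. Amanitin stops the synthesis of messenger RNA by the embryo, while stored RNA can still be degraded. A transcript made after fertilization is therefore lower in treated embryos, and a stored transcript need not be. RNA polymerases I and III, which make ribosomal and transfer RNA, and the mitochondrial RNA polymerase are far less sensitive to the toxin.

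The deposited values are intensities on a linear scale, with a trimmed mean of 150 on every array. Differences were taken on the log2(intensity + 16) scale, where falls to a low intensity are understated. A gene was counted as risen or fallen where its adjusted p in limma (Benjamini-Hochberg over 31953 probe sets) was under 0.05. Of 15274 genes tested, 5062 fell (33.1%) and 5672 rose (37.1%), 70.3% in all, with a median log2 change of 0.11 over all genes and a median standard error of 0.17. At least 2-fold falls numbered 3340 (21.9%) and at least 2-fold rises 2434 (15.9%). At least 8-fold, 741 genes fell (4.85%) and 7 rose, and at least 32-fold 60 fell. In 374 genes all untreated arrays lay at or above, and all treated arrays below, the 40th percentile of the array, and 190 genes showed the converse.

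The scale of the arrays moved with the treatment. Treated arrays read poly-A control probe sets, which detect transcripts added to the sample, at a log2 level 1.85 above that of untreated arrays, hybridization controls at 0.55 and 18S ribosomal RNA at 1.26, each with an exact two-sided permutation p of 0.0286 (4 against 4 arrays, the smallest p this design allows). After scaling to these poly-A controls, all genes together had a median change of −1.17, 12589 genes were lower (82.4%) and 158 higher (1.03%). All 5062 falls stayed lower on that scale, which lowers treated values relative to untreated ones and so cannot reverse a fall. Of the 5672 rises 158 stayed higher. A rise below is therefore relative to the array, and its value scaled to the poly-A controls follows it as "poly-A scaled". Scaled to the hybridization controls the median of all genes was −0.25 and 6669 genes were lower and 3210 higher, and with quantile normalization 0.22. Of the 34 gene lists described below, 21 had a median change below 0 as deposited and 12 above it, and scaled to the poly-A or to the hybridization controls all 34 lay below 0. The part of the array scale in any single change was not tested.

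Markers of cell types were read on each array, and the two-cell stage itself is taken from the labels. Of 18 two-cell embryo markers listed, which include genes of the oocyte, 12 are on the array, and of these 7 fell and 4 rose. Of all genes 33.1% fell and 37.1% rose. None of the 12 lay below the 40th percentile in either group, and their summed intensity was 19868.5 to 24065.1 untreated and 13231.1 to 14521.2 treated. Of 16 cumulus and granulosa cell markers 5 lay below that percentile untreated and 4 treated, and their sum fell from between 2295.5 and 2651.5 to between 595.6 and 754.1. That fall came from Amhr2, a receptor of anti-Müllerian hormone, which went from 2086 ± 211 to 58.9 ± 17.3 (mean intensity ± SD, n = 4; log2 change −4.84). Without Amhr2 the sum was 365.7 to 418.3 untreated and 553 to 682.6 treated. Summed markers of sperm were 224.7 to 308.2 and 180.8 to 203.4, and of blood and stroma 197.3 to 227 and 240.1 to 324.2, in each case with 7 of 12 below the percentile untreated. Untreated arrays 3 and 4 lay nearer to the treated arrays than arrays 1 and 2, with correlations across genes with the treated mean of 0.861 and 0.856 against 0.835 and 0.838. The part of these marker levels and of the 2 arrays in other results was not tested, and counts without both arrays are in the closing part on processing.

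Among the 15 genes with the largest falls were transcripts of quite different functions, each with a strong signal in untreated embryos and a far lower one with amanitin. Zfp707, a zinc finger gene, read 1486, 1398, 1348 and 1491 on the untreated arrays and 5.2, 3.8, 3.8 and 2.1 on the treated arrays. Utp23, a factor of ribosome assembly in the nucleolus, read 1603, 1400.1, 1136 and 1166 on the untreated arrays and 8.1, 2.6, 7 and 1.3 on the treated arrays. Eid2, an inhibitor of differentiation that binds histone acetyltransferases, read 2243, 2134, 2052 and 2119.5 on the untreated arrays and 21.7, 26.7, 11.4 and 15.7 on the treated arrays. In all 3 genes the lowest untreated array lay far above the highest treated one, and the log2 changes were −6.20 ± 0.12 (SE), −6.02 ± 0.15 and −5.97 ± 0.15 (limma, adjusted p 3.58e-21, 9.54e-20 and 1.33e-19). Ficd, an enzyme that attaches AMP to the chaperone BiP in the endoplasmic reticulum, fell from 1438 ± 138 to 9.2 ± 1.4 (−5.85). Pramel6, of the Prame-like family of early embryos, fell from 1767 ± 333 to 14.4 ± 10.8 (−5.94). Prps1, which makes the ribose precursor of all nucleotides, fell from 3151 ± 195 to 37 ± 16 (−5.95). The homeobox gene Obox6 fell from 2204 ± 225 to 26.3 ± 26.8 (−5.90), and its treated arrays were spread more widely, at 7.3 to 64.7.

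**Figure D1:**
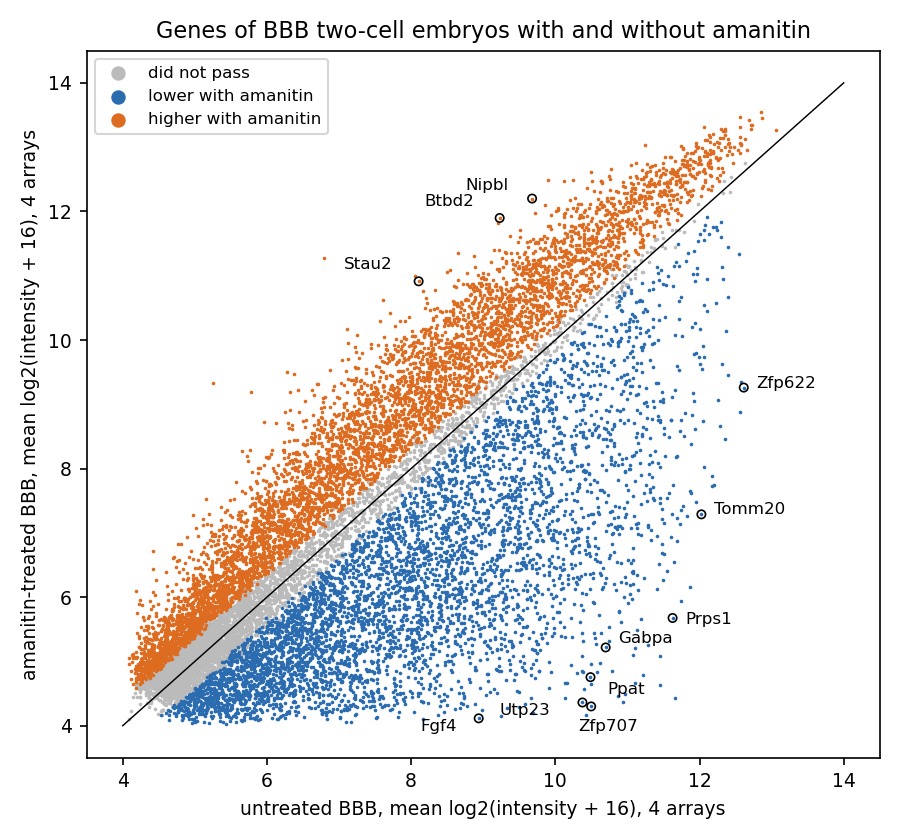
Mean of log2(intensity + 16) of 4 treated arrays (vertical axis) against that of 4 untreated arrays (horizontal axis) for the 15274 genes tested, with falls in blue, rises in orange and genes that did not pass in grey. The cloud has a long arm to the lower right, where genes such as Zfp707 and Utp23 lie near the bottom, and few genes far above the diagonal, with Stau2 and Btbd2 among them; scaled to the poly-A controls most genes above the diagonal lie below 0.

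Transcripts that build the RNA polymerases of ribosomal and transfer RNA genes fell as a group. Of 34 genes for polymerases I and III and their factors, 26 fell and 4 rose (76.5% and 11.8%, beside 33.1% and 37.1% of all genes). Their median was −2.0 against 0.11 for all genes (−3.67 scaled to the poly-A controls, against −1.17). Of the polymerase I genes 13 of 14 fell, 1 did not pass and none rose. Taf1d, a subunit of the selectivity factor SL1, read 1525, 1494, 1281 and 1661 on the untreated arrays and 68, 86, 92.7 and 78.6 on the treated arrays. Polr1c, a subunit shared by polymerases I and III, read 2788, 2817, 2315 and 2585 on the untreated arrays and 195, 179, 214 and 100 on the treated arrays. Neither gene's groups overlapped, and the changes were −3.95 ± 0.13 (SE) and −3.86 ± 0.15. Ubtf, which opens ribosomal RNA genes, fell by 2.60 on the log2 scale, while Rrn3, which recruits polymerase I to its promoters, read 899.8, 839, 776 and 817 on the untreated arrays and 788, 792, 865 and 828 on the treated arrays and did not pass (−0.02, adjusted p 0.835). Of the polymerase III genes Polr3k, a small subunit, fell from 1752 ± 148 to 113 ± 32.2 (−3.80). The 2 largest rises were those of Polr3f, at 1.54 (poly-A scaled −0.19), and Polr3gl, at 1.18 (−0.29). Polr3gl and Polr3g encode alternative forms of 1 subunit, and Polr3g, the form of early embryos and stem cells, fell from 321 ± 53.8 to 44.4 ± 13.3 (−2.49).

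Genes that finish and export messenger RNA also fell more often than they rose. In 3′ end formation 13 of 20 fell and 5 rose (65% and 25%, beside 33.1% and 37.1% of all genes, median −0.83). Members of the cleavage stimulation factor went both ways. Cstf2t, the autosomal copy of an RNA-binding subunit, fell from 2039.6 ± 82.5 to 45.1 ± 11.2 (−5.09), and Cstf1 fell from 1413 ± 74.3 to 54.4 ± 7.5 (−4.35), whereas the X-linked copy Cstf2 rose by 0.70 (poly-A scaled −1.11). Papola, the poly(A) polymerase, fell by 3.01. Signal shared between near-identical copies, such as Cstf2 and Cstf2t or the Obox and Pramel genes, was not tested. In mRNA export 12 of 20 fell and 5 rose (60% and 25%, median −1.27). Thoc5, of the THO complex, fell by 4.48, the adaptor Chtop by 3.88 and the export receptor's partner Nxt1 by 3.22, while Thoc2, the scaffold of the same THO complex, rose by 1.46 (poly-A scaled −0.36). Of the RNA exosome, which trims and degrades RNA, 10 of 13 genes fell and 2 rose (76.9% and 15.4%, median −1.95). The falls were led by the cofactor C1d (−5.10).

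Carriers of nuclear transport went both ways. Among 28 importins, exportins and Ran factors, 16 fell and 7 rose (57.1% and 25%, beside 33.1% and 37.1% of all genes). Among 27 nucleoporins 11 fell and 9 rose (40.7% and 33.3%), none of them at least 8-fold. Ipo7, an importin of ribosomal proteins, read 2072, 2001, 1658 and 1591 on the untreated arrays and 65, 34.8, 50.7 and 65.9 on the treated arrays. Ipo9, an importin of core histones and actin, read 375, 337, 412 and 361 on the untreated arrays and 1486, 1558, 1584 and 1488 on the treated arrays. Ipo7 was lower and Ipo9 higher on every treated array (−4.74 and 2.0, poly-A scaled 0.19 for Ipo9). Among the importin α adaptors Kpna1 fell from 1456 ± 85.3 to 45.2 ± 10.4 (−4.60) and Kpna4 by 2.89, and Kpna7, the adaptor of oocytes, rose from 558 ± 141 to 1496 ± 362 (1.40, poly-A scaled −0.42). Xpot, which exports transfer RNA, fell by 4.47. The nucleoporins with the largest falls, Nup155 (−2.77) and Nup133 (−2.72), are scaffold proteins, as is Nup107 (−2.48).

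The synthesis of nucleotides gave some of the largest falls. Of 29 genes 21 fell and 4 rose (72.4% and 13.8%, beside 33.1% and 37.1% of all genes). Their median was −1.61 (−3.42 poly-A scaled). In the purine branch 9 of 11 fell and 1 rose (81.8% and 9.09%). Prps1 read 3348, 3088, 2908 and 3259 on the untreated arrays and 35.9, 18.4, 36 and 57.5 on the treated arrays, and Ppat, which takes the first committed step of purine synthesis, read 1464, 1642, 1281 and 1321 on the untreated arrays and 16.3, 8.7, 11.1 and 8.6 on the treated arrays. In both genes no treated array exceeded 57.5 and no untreated array was under 1281. Prps2, the second form of the Prps1 enzyme, read 16.4, 40.4, 32.6 and 21.3 on the untreated arrays and 45.8, 54.6, 49.6 and 42.5 on the treated arrays and did not pass (0.58, adjusted p 0.0929), although each treated array lay above each untreated one. In the pyrimidine and deoxynucleotide branch Rrm1, the large subunit of ribonucleotide reductase, fell by 3.56, and Cad, which starts pyrimidine synthesis, by 3.36. The thymidylate synthase Tyms did not pass (−0.18). It read 11.2 ± 4.5 untreated and 8.1 ± 4.8 treated, near the arrays' 40th percentiles of 10.8 to 13, so its change is not measured. Of the one-carbon enzymes, the cytosolic serine hydroxymethyltransferase Shmt1 fell from 1579.7 ± 50.4 to 67 ± 18.9 (−4.29), and the mitochondrial Shmt2 rose from 793 ± 117 to 2151 ± 126 (1.43, poly-A scaled −0.40).

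**Figure D2:**
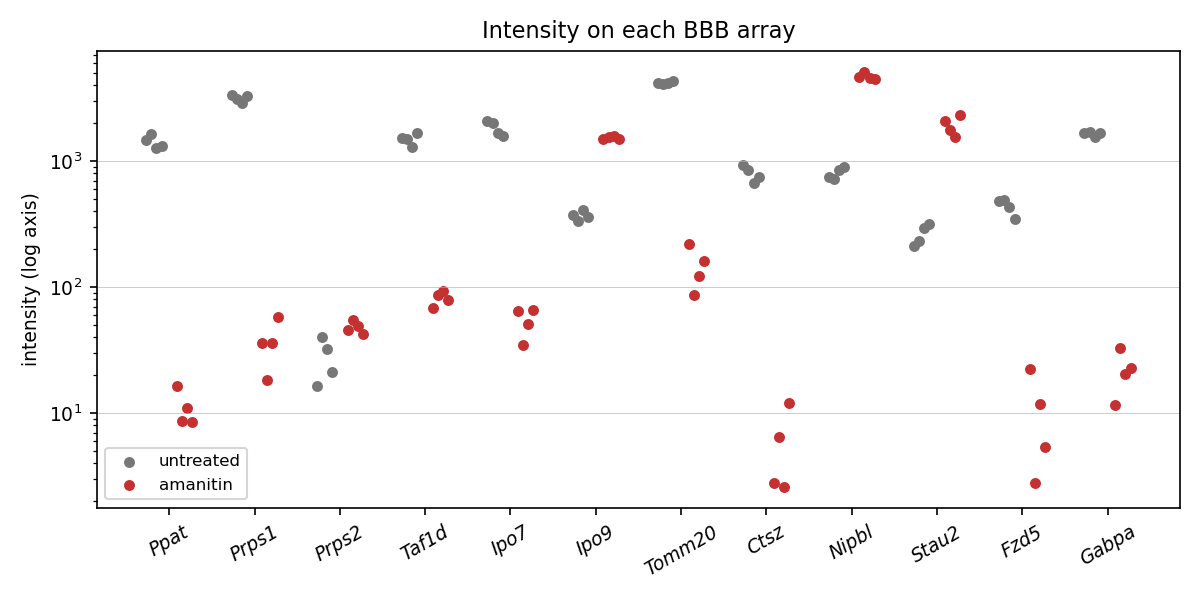
Intensity on each of the 8 arrays (logarithmic vertical axis) for 12 genes, with untreated arrays in grey and treated arrays in red and 1 point per array. The points of Ppat, Prps1, Taf1d, Ipo7, Tomm20, Ctsz, Fzd5 and Gabpa fall between the groups without overlap, those of Ipo9, Nipbl and Stau2 rise without overlap, and those of Prps2 differ least. Scaled to the poly-A controls the changes of Ipo9, Nipbl and Stau2 are 0.19, 0.69 and 1.01.

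Amino acid charging, polyamines and uptake of nutrients went both ways. Of 37 aminoacyl-tRNA synthetases and their partners 19 fell and 7 rose (51.4% and 18.9%, beside 33.1% and 37.1% of all genes, median −0.35). The falls were 13 among 22 cytosolic members (59.1%) and 6 among 15 mitochondrial members (40%). Hars, the histidine enzyme, fell from 986 ± 194 to 45.1 ± 22.6 (−4.09) and Aimp2, a scaffold of the multisynthetase complex, by 3.50, while Fars2, the mitochondrial phenylalanine enzyme, rose by 1.30 (poly-A scaled −0.53). Of 9 genes for polyamines and hypusine 4 fell and 4 rose (44.4% each way, median 0.08, poly-A scaled −1.73). Dhps and Dohh, the enzymes that make hypusine on the translation factor eIF5A, fell by 3.22 and 2.06, and Odc1, the first enzyme of polyamine synthesis, by 1.65. Oaz2 and Oaz1, antizymes that restrain that enzyme, rose by 0.79 and 0.50 and eIF5A itself (Eif5a) by 0.50 (poly-A scaled −1.05, −1.35 and −1.34, and with quantile normalization 0.36, −0.14 and −0.12). Among amino acid transporters 8 of 23 fell and 7 rose (34.8% and 30.4%), near the 33.1% and 37.1% of all genes. Slc43a2 (−4.27) and Slc1a1 (−4.04) fell most, and Slc6a6, which takes up taurine, and Slc6a9, the glycine transporter of oocytes and cleavage embryos, rose by 1.74 and 1.67 (poly-A scaled −0.07 and −0.16). The glucose transporter Slc2a3 read 1594, 1539, 1599.8 and 1481 on the untreated arrays and 64, 103, 96.3 and 28.9 on the treated arrays, and Slc2a1 read 314, 295, 308 and 309 on the untreated arrays and 927, 733, 637 and 728 on the treated arrays. Slc2a3 was lower on every treated array (−4.23) and Slc2a1 was higher on each of them (1.25, poly-A scaled −0.54). Slc16a1, a lactate and pyruvate carrier, fell from 331 ± 71.4 to 5.1 ± 2.6 (−4.03).

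Among organelle genes, those for importing proteins into mitochondria fell in 21 of 31 and rose in 7 (67.7% and 22.6%, median −1.29). Of all genes 33.1% fell and 37.1% rose. Tomm20, the import receptor of the outer membrane, read 4129, 4080.2, 4127 and 4285 on the untreated arrays and 219.8, 86.2, 124 and 161 on the treated arrays, without overlap (−4.74 ± 0.18, SE). The carrier translocase genes Timm10, Timm29 and Timm22 fell by 4.07, 4.02 and 3.39, and Timm21, of the presequence translocase, rose by 1.16 (poly-A scaled −0.66). Lysosomal genes fell in 20 of 30 and rose in 6 (66.7% and 20%, median −1.03). The proteases cathepsin Z (Ctsz), B (Ctsb) and A (Ctsa) fell by 5.23, 4.29 and 4.10, and Ctsz read 938, 845, 676 and 753 on the untreated arrays and 2.8, 6.5, 2.6 and 12.1 on the treated arrays. Subunits of the proton pump that acidifies lysosomes moved both ways. The accessory protein Atp6ap2 fell by 3.38, and Atp6v1g1 and Atp6v1f rose by 2.24 and 1.67 (poly-A scaled 0.41 and −0.09).

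In the endoplasmic reticulum 14 of 21 translocation and folding genes fell and 4 rose (66.7% and 19%, beside 33.1% and 37.1% of all genes). The falls were led by the disulfide isomerase Pdia3 (−3.06) and the translocon-associated Ssr2 (−2.75). Of the stress response genes Derl1, a channel of protein removal, fell by 1.88, the stress transcription factor Xbp1 by 1.39, and the degradation factor Edem2 rose by 1.85 (poly-A scaled 0.02). Autophagy genes fell in 17 of 33 and rose in 12 (51.5% and 36.4%, beside 33.1% and 37.1% of all genes). Wipi2, which reads phosphoinositides on the forming membrane, fell from 1835 ± 143 to 134 ± 72.7 (−3.79), and its relative Wipi1 rose from 237 ± 24.5 to 946 ± 74.7 (1.93, poly-A scaled 0.15). Gabarapl2, of the ubiquitin-like proteins joined to that membrane, fell from 1639 ± 119 to 60.7 ± 19 (−4.46), and Atg10 and Uvrag rose by 1.51 and 1.40 (poly-A scaled −0.05 and −0.44). Of 25 redox genes 12 fell and 8 rose (48% and 32%). Prdx4, the peroxiredoxin of the endoplasmic reticulum, fell by 3.50 and the lipid peroxidase Gpx4 by 3.18, and the mitochondrial thioredoxin Txn2 rose by 1.86 (poly-A scaled 0.03).

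DNA replication genes were grouped by step. Of 23 genes that license origins or form the replicative helicase 14 fell and 6 rose (60.9% and 26.1%). Of 26 polymerase and fork genes 10 fell and 12 rose (38.5% and 46.2%), beside 33.1% and 37.1% of all genes. Orc1, the largest subunit of the origin recognition complex, read 574, 514, 631 and 575 on the untreated arrays and 49.2, 50.2, 64.6 and 35.9 on the treated arrays. Its partner Orc2 read 1265, 1176, 1349 and 1310.1 on the untreated arrays and 3043, 2945, 3043 and 3187 on the treated arrays. Orc1 fell (−3.17) and Orc2 rose (1.25, poly-A scaled −0.58), both without overlap. The loading factor Cdc6 fell by 3.14, the sliding clamp Pcna by 3.06 and the single-strand binding subunit Rpa2 by 3.82, while Pole3, a histone-fold subunit of polymerase ε, and Pola1, the catalytic subunit of polymerase α, rose by 1.86 and 1.41 (poly-A scaled 0.05 and −0.39).

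Chromosome segregation genes had shares of falls and rises of 43.3% and 36.7% in cohesin and condensin and 45% and 42.5% at the kinetochore, beside 33.1% and 37.1% of all genes. Scaled to the hybridization controls 16 and 23 genes of these lists were lower and 4 and 7 higher, and scaled to the poly-A controls 27 and 38 were lower and 1 and 0 higher. On the poly-A scale 82.4% of all genes were lower and 1.03% higher. In cohesin and condensin 13 of 30 fell and 11 rose. Nipbl, which loads cohesin onto chromosomes, read 746, 724, 854 and 902 on the untreated arrays and 4624, 5132, 4555 and 4483 on the treated arrays (2.52 ± 0.09, SE; poly-A scaled 0.69), and Pds5a, which regulates bound cohesin, fell from 466 ± 41.7 to 45.6 ± 15.5 (−3.0). Of the meiotic cohesins Smc1b rose by 0.55 (poly-A scaled −0.82) and Rec8 did not pass (0.44). Rec8 read 7.2 ± 5.4 untreated and 19.3 ± 20.1 treated, near the bottom of the arrays, so its change is not measured. Stag3, with overlapping groups, stood at −0.75 (adjusted p 0.00759, or 0.0566 without untreated arrays 3 and 4). Of 40 kinetochore and checkpoint genes 18 fell and 17 rose. The chromosomal passenger complex fell in its kinase Aurkb (−3.48) and scaffold Incenp (−2.93), and the related oocyte kinase Aurkc rose by 0.58 (poly-A scaled −1.23). Nuf2 and Ndc80, which form 1 heterodimer that holds microtubules, went opposite ways, at 2.03 (poly-A scaled 0.21) and −2.18. At the spindle pole centriole genes rose in 8 of 14 and fell in 3 (57.1% and 21.4%), and poly-A scaled 0 were higher and 13 lower. Stil, needed to build a new centriole, fell from 646 ± 62.5 to 15.8 ± 8 (−4.41). Genes of microtubule nucleation fell in 14 of 21 and rose in 5 (66.7% and 23.8%). The falls were led by Tpx2 (−2.75) and the kinase Aurka that it binds (−2.72).

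Genes of mRNA storage had the highest share of rises of the 34 lists. Of 24 genes that store oocyte mRNA or control its translation 14 rose and 5 fell (58.3% and 20.8%). Over all genes the shares were 37.1% and 33.1%, and the medians were 0.48 for the list and 0.11 for all genes. Poly-A scaled, the list's median of −1.29 was below the −1.17 of all genes. On that scale 1 member was higher and 21 were lower, beside 1.03% and 82.4% of all genes. Stau2, a double-stranded RNA binding protein, read 210.2, 233, 292 and 315 on the untreated arrays and 2082, 1779, 1548 and 2330.2 on the treated arrays (2.81 ± 0.16, SE; poly-A scaled 1.01), and its relative Stau1 read 323, 313, 274 and 282 on the untreated arrays and 46.1, 70.6, 64.3 and 51.2 on the treated arrays (−2.09). In both genes the groups were separate, in opposite directions. Ybx2, which packages stored RNA in germ cells, rose by 1.79 and the germ cell protein Dazl by 1.43 (poly-A scaled −0.04 and −0.40). Igf2bp1, an RNA binding protein of embryonic tissues, fell from 491 ± 40.4 to 41.6 ± 21 (−3.22), and Igf2bp3 rose by 1.41 (poly-A scaled −0.43).

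Genes that shorten the poly(A) tail rose in 11 of 20 and fell in 6 (55% and 30%, beside 37.1% and 33.1% of all genes). Poly-A scaled, 0 of them were higher and 19 lower, beside 1.03% and 82.4% of all genes. Cnot4 (1.34) and Pabpn1l (1.53), an oocyte poly(A) binding protein, rose most (poly-A scaled −0.48 and −0.01). Tob1 and Tob2, adaptors that bring the CCR4-NOT deadenylase to its targets, fell from 665 ± 80.7 to 48 ± 3.7 (−3.41) and from 2353 ± 263 to 359.6 ± 57.6 (−2.66). In decapping, uridylation and surveillance 7 of 17 rose and 7 fell (41.2% each way, beside 37.1% and 33.1% of all genes). Ythdf3, a reader of methylated RNA, rose by 1.88 (poly-A scaled 0.06), and Tut4, which adds uridines to RNA before decay, fell by 2.57. Of 10 genes of RNA adenosine methylation 6 fell and 3 rose (60% and 30%), and Rbm15 of the writer complex fell most (−3.79). The catalytic pair split, with Mettl14 at −1.73 and Mettl3 at 1.14 (poly-A scaled −0.68). Among small RNA genes Lin28a, which blocks the microRNA let-7, and the PIWI gene Piwil1 rose by 1.97 and 1.85 (poly-A scaled 0.15 and 0.17), and Piwil2 fell by 2.64.

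DNA methylation genes rose in 9 of 17 and fell in 7 (52.9% and 41.2%, beside 37.1% and 33.1% of all genes). Their median was 0.33 (poly-A scaled −1.08). Among the 3 dioxygenases that oxidize methylcytosine, Tet3, the form of the oocyte and zygote, read 97.1, 67.7, 105 and 74.3 on the untreated arrays and 299, 376, 394 and 379.9 on the treated arrays, Tet1 read 117, 176, 132 and 133 on the untreated arrays and 26, 30.3, 44.3 and 68 on the treated arrays and Tet2 read 12.4, 9.9, 15.5 and 12.6 on the untreated arrays and 7.7, 8.3, 1 and 10.4 on the treated arrays. Tet3 was higher on every treated array (1.90, poly-A scaled 0.22), Tet1 was lower (−1.46) and Tet2 did not pass (−0.34). Dnmt3l, the cofactor of new methylation in oocytes, rose by 1.88 (poly-A scaled 0.09), Trim28, a corepressor that keeps imprints together with Zfp57, fell by 2.93, and Zfp57 rose by 1.22 (poly-A scaled −0.50). Of the histone genes both copies of the variant H2A.Z fell, H2az1 by 2.78 and H2az2 by 2.84, as did the H2A.Z chaperone Anp32e (by 3.02). The oocyte linker histone H1f8 was just within the threshold (0.53, poly-A scaled −0.94, adjusted p 0.0486), and leaving out any 1 of the 8 arrays except treated array 3 gave adjusted p of 0.0562 to 0.1.

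Cell contact genes, which prepare the embryo for compaction, were set beside polarity genes. Of 16 junction genes 10 fell and 2 rose (62.5% and 12.5%), and of 12 polarity genes 3 fell and 7 rose (25% and 58.3%). Of all genes 33.1% fell and 37.1% rose. F11r, the junctional adhesion molecule A, read 1019.6, 1138, 925 and 916 on the untreated arrays and 46.2, 16, 52.1 and 10.7 on the treated arrays, and Gja1, a connexin of gap junctions, read 1098, 879.5, 664 and 937 on the untreated arrays and 40.2, 17.3, 14.2 and 44.2 on the treated arrays. Both sets of groups were far apart (−4.54 and −4.38). Epcam fell by 3.59, β-catenin (Ctnnb1) by 2.87 and E-cadherin (Cdh1) from 724 ± 24.9 to 155 ± 24.5 (−2.12). The polarity genes Mark2 and Pard3 rose by 1.88 and 1.86 (poly-A scaled 0.05 and 0.06), and Amot, an angiomotin of the Hippo pathway, fell by 3.64. Poly-A scaled, 0 polarity genes were higher and 10 lower, with a median of −0.96 against −2.15 for the junction genes. Of all genes 1.03% were higher and 82.4% lower on that scale, with a median of −1.17. Of 31 actin cytoskeleton genes 15 rose and 9 fell (48.4% and 29%, beside 37.1% and 33.1% of all genes). Poly-A scaled, 1 of these was higher and 27 lower. The oocyte nucleator Fmn2 and the capping protein Capzb rose by 1.63 and 2.30 (poly-A scaled −0.21 and 0.50).

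In the Wnt pathway, which signals through β-catenin, the counts are given by role, and a difference between roles was not tested. Ligand and receptor genes fell in 12 of 19 and rose in 4 (63.2% and 21.1%). Signal transducers fell in 3 of 11 and rose in 6 (27.3% and 54.5%). Nuclear factors fell in 5 of 10 and rose in 4 (50% and 40%). Of all genes 33.1% fell and 37.1% rose. Scaled to the poly-A controls 0 ligand and receptor genes were higher and 18 lower, 0 and 9 of the transducers, and 2 and 7 of the nuclear factors. Of all genes 1.03% were higher and 82.4% lower on that scale. The Frizzled receptor Fzd5 read 484, 490.5, 435 and 348 on the untreated arrays and 22.3, 2.8, 11.9 and 5.4 on the treated arrays, without overlap (−4.14). Fzd7, Fzd4 and Fzd2 fell by 3.94, 3.63 and 3.53. The co-receptors Lrp5 and Lrp6 rose by 1.28 and 1.03 (poly-A scaled −0.35 and −0.77). Lef1 and Tcf7l2, which bind Wnt target genes together with β-catenin, rose by 3.01 and 2.10 (poly-A scaled 1.23 and 0.74), while Tle4, a corepressor of these factors, fell by 2.33. Gsk3a and Gsk3b, kinases that mark β-catenin for destruction, stood at 1.88 (poly-A scaled 0.04) and −1.08.

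The other signalling lists had shares near those of all genes (33.1% fell and 37.1% rose), at 33.3% and 43.6% for growth factors and ERK, 37.1% and 31.4% for TGF-β and BMP and 29% and 41.9% for mTOR. In the growth factor and ERK list 13 of 39 fell and 17 rose. Fgf4, the growth factor of the early epiblast, read 441, 631, 394 and 459 on the untreated arrays and 0.4, 0.3, 2.2 and 2.5 on the treated arrays and was below every array's 40th percentile with amanitin (−4.82). Among feedback inhibitors Spry2 fell by 2.87 and the phosphatases Dusp5 and Dusp6 by 2.84 and 2.57, and Dusp7 and Spred1 rose by 1.33 and 1.30 (poly-A scaled −0.51 and −0.49). The receptor Egfr rose by 1.87 (poly-A scaled 0.05). Of 35 TGF-β and BMP genes 13 fell and 11 rose. Smad7, the inhibitor of this pathway, fell from 1069 ± 67 to 26.1 ± 4.6 (−4.69), and the ubiquitin ligase Smurf1 rose by 2.29 (poly-A scaled 0.55). Bmp15 and Bmp6, growth factors of the oocyte, rose by 1.45 and 1.47 (poly-A scaled −0.39 and −0.37). In the mTOR list 9 of 31 fell and 13 rose, and its stress-induced inhibitors Sesn2 and Sesn1 fell by 4.20 and 2.19.

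**Figure D3:**
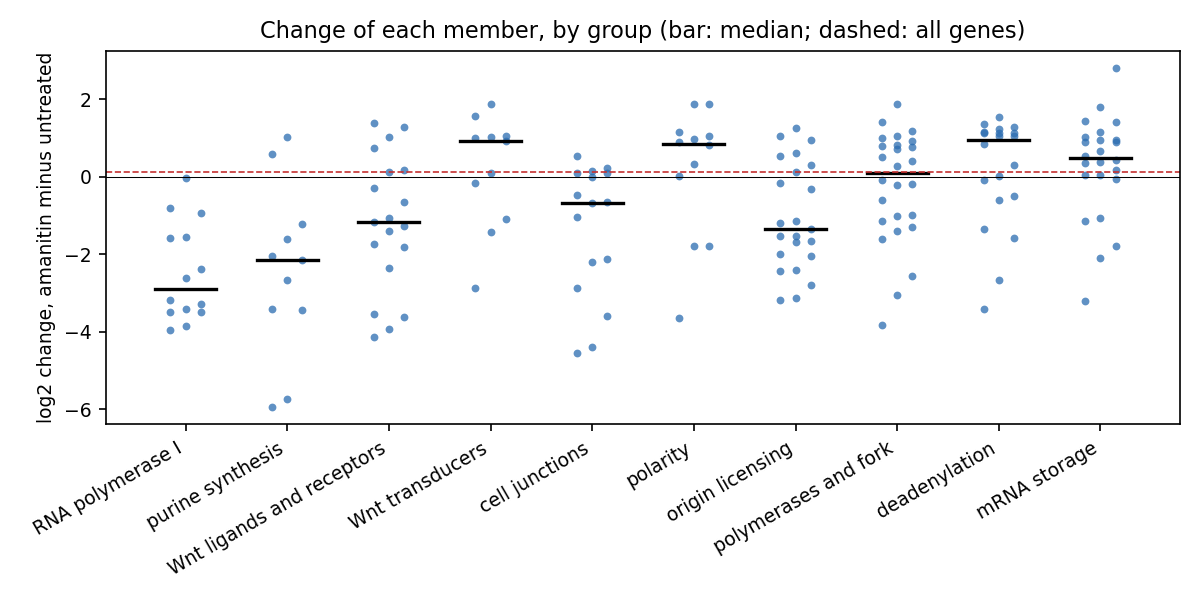
Log2 change with amanitin of each tested member (1 point per gene) in 10 groups of genes, with the median of each group as a bar and the median of all genes, 0.11, as a dashed line. The members of polymerase I, purine synthesis and Wnt ligands and receptors lie mainly below 0, and those of mRNA storage, deadenylation and polarity mainly above it (medians of 0.48, 0.94 and 0.85, or −1.29, −0.90 and −0.96 scaled to the poly-A controls). On that scale the median of all genes is −1.17.

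In the smaller lists, 5 of 20 clock genes fell and 9 rose (25% and 45%, beside 33.1% and 37.1% of all genes). Poly-A scaled, 0 clock genes were higher and 15 lower, beside 1.03% and 82.4% of all genes. The output factors Tef and Dbp and the repressors Ciart and Nr1d2 fell, Ciart from 215 ± 35.7 to 6.8 ± 4.7 (−3.35), Tef by 2.91, Dbp by 2.27 and Nr1d2 by 1.95. The core activators Clock and Arntl rose by 0.74 and 0.88 (poly-A scaled −1.08 and −0.94) and the clock kinase Csnk1e by 2.13 (0.29). Of 20 immediate early and growth arrest genes 12 fell and 2 rose (60% and 10%). Btg1, which restrains proliferation, fell from 819 ± 70.8 to 51 ± 14.5 (−3.66), and Ier5 and Ier3 fell by 3.56 and 3.44. In apoptosis 12 of 19 pro-apoptotic genes fell and 4 rose (63.2% and 21.1%), and of 10 anti-apoptotic genes 3 fell and 5 rose (30% and 50%). Bid, a link from death receptors to mitochondria, fell by 2.34. Casp8, the initiator caspase of death receptors, rose from 40.1 ± 14.8 to 298 ± 49.3 (2.52, poly-A scaled 0.97), as did its inhibitor Cflar (1.41, poly-A scaled −0.29).

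**Figure D4:**
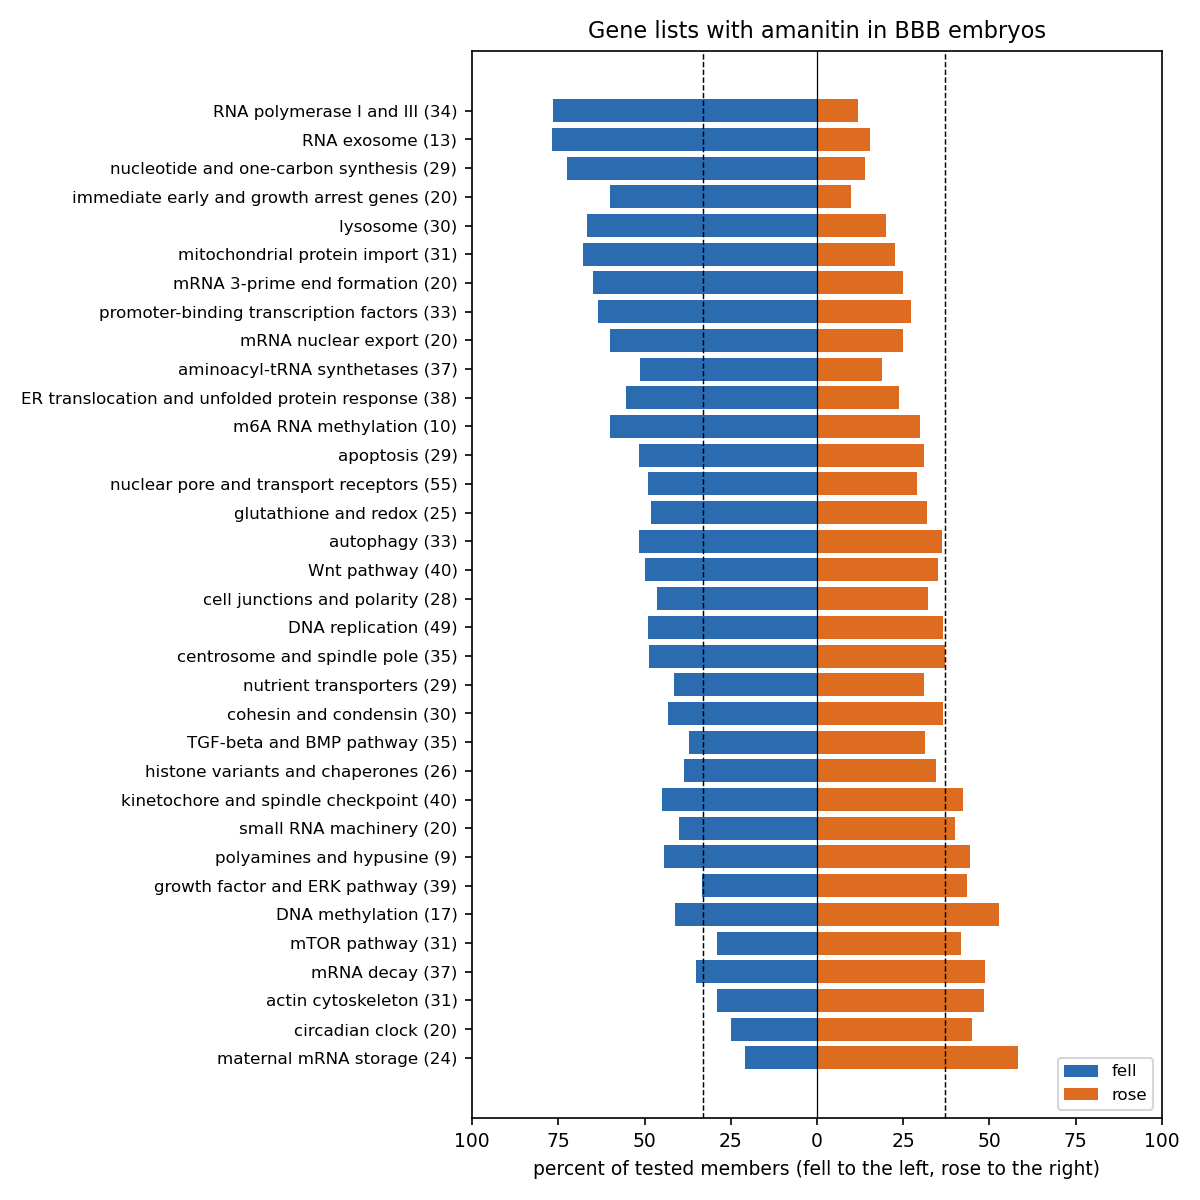
Share of tested members that fell (blue, to the left) and rose (orange, to the right) in each of the 34 gene lists, with the number tested beside the name and dashed lines at the shares of all genes, 33.1% and 37.1%. Lists are sorted by the share that fell minus the share that rose. Polymerases I and III stand at the top with 76.5% lower, the RNA exosome has 76.9% lower, and mRNA storage, at the bottom, has 58.3% higher, of which 1 member is higher scaled to the poly-A controls.

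Among transcription factors that bind common promoter motifs 21 of 33 fell and 9 rose (63.6% and 27.3%, median −0.91). Of all genes 33.1% fell and 37.1% rose. Gabpa, the ETS-family subunit of the GA-binding protein, read 1661, 1705, 1546 and 1675 on the untreated arrays and 11.7, 33.1, 20.3 and 22.8 on the treated arrays, and its partners Gabpb1 and Gabpb2 fell by 2.38 and 3.31. The lowest untreated array of Gabpa stood at 1546 and the highest treated array at 33.1 (−5.48 ± 0.17, SE). Elk4, another ETS factor, rose by 1.43 (poly-A scaled −0.40). The Obox homeobox genes split, with Obox6 at −5.90 and Obox3 at −5.02, and Obox2 and Obox5 at 1.83 and 1.25 (poly-A scaled −0.01 and −0.60). In the MYC network Mycn, a relative of MYC, fell by 2.58 and Max, the shared partner, rose by 2.32 (poly-A scaled 0.60).

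Promoters of these genes were read from RefSeq (GRCm38.p6), from 250 bases before to 50 bases after the start, with the first listed start of a gene. They covered 605 of the 741 genes that fell at least 8-fold (81.6%), 1969 of the 2434 that rose at least 2-fold and 12190 of the 15274 tested. The ETS word CCGGAAG, searched on both strands, stood in 22.5% of the promoters of genes that fell at least 8-fold, in 13.2% of those that rose at least 2-fold and in 15.5% of all tested (9.12% of all 27025 promoters in the table). The E-box CACGTG, which reads the same on both strands, stood in 11.6%, 8.43% and 9.66%, the CRE word TGACGTC in 6.45%, 4.47% and 4.88%, and the GC box GGGCGG in 63.5%, 59.6% and 58.4%. The homeobox word GGATTA stood in 8.76%, 4.72% and 5.71%. CCAAT stood in 42%, 35.5% and 38.3%, TATAAA in 7.27%, 8.68% and 8.44%, AAGGTCA in 3.47%, 3% and 3.47%, and AAGATGG in 6.61%, 7.11% and 6.92%. The median GC share was 60%, 60.7% and 59.7%, and the ratio of observed to expected CpG 0.81, 0.72 and 0.72. Scaled to the poly-A controls the class that rose at least 2-fold held 18 genes, 13 with a promoter, so its shares hold for the deposited scale only. These shares are descriptions without a test, and a match is not a bound site.

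The 120 bases before the start are shown for 5 genes that fell and 2 that rose, with every match to the 9 words in capitals, 5′ to 3′ on the strand of the gene (GRCm38.p6). The first 4 are genes that fell and hold the ETS word or its reverse complement, Pramel6 fell and holds none, and Btbd2 and Mid1 rose. Overlapping matches run together.
Prps1, chrX:140456483-140456602, plus strand: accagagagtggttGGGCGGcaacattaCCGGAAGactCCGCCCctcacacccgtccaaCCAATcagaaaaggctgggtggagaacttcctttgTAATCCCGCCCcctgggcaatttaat
Ppat, chr5:76951579-76951698, minus strand: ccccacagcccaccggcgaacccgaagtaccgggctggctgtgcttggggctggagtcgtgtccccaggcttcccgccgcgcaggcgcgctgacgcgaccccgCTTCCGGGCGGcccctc
Ficd, chr5:113735662-113735781, plus strand: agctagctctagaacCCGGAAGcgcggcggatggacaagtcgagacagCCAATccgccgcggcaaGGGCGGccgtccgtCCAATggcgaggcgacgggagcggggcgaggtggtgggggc
Gabpa, chr16:84835004-84835123, plus strand: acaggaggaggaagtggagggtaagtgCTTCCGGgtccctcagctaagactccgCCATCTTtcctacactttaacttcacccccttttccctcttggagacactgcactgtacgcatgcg
Pramel6, chr2:87506445-87506564, plus strand: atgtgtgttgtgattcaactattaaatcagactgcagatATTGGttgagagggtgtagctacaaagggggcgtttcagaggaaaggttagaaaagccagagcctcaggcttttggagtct
Btbd2, chr10:80656495-80656614, minus strand: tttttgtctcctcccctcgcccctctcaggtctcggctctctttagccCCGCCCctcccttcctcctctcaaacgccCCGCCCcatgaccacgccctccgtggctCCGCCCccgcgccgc
Mid1, chrX:169685079-169685198, plus strand: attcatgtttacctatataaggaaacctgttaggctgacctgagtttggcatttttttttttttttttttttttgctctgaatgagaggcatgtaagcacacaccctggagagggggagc
Prps1 and Ficd hold the ETS word and the CCAAT word in the strand of the gene, Ppat and Gabpa hold the ETS word on the opposite strand, and in Ppat it overlaps a GC box. In Pramel6 the single match in this window is CCAAT on the opposite strand. The window of Btbd2 holds 3 GC boxes on the opposite strand, and that of Mid1 none of the 9 words.

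The span of the genes in the genome, from RefSeq start to end, was compared between the same classes without a test. The median span was 15.1 kb (quartiles 6.7 and 29.9, 740 genes) where the fall was at least 8-fold, 16.1 kb (7.1 and 33.2, 3334 genes) where it was at least 2-fold, 37.2 kb (15.9 and 101.4, 2423 genes) where the rise was at least 2-fold and 21.9 kb (8.9 and 53.2, 15183 genes) over all genes tested. Scaled to the poly-A controls only 18 genes rose at least 2-fold, with a median span of 14.2 kb (quartiles 7.2 and 75.5). On that scale the median was 16.1 kb where the fall was at least 8-fold. By chromosome the share of genes that fell ran from 24.8% on chromosome 6 to 39.4% on chromosome 11, and the share that rose from 32.7% on chromosome 11 to 44.5% on chromosome 6.

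**Figure D5:**
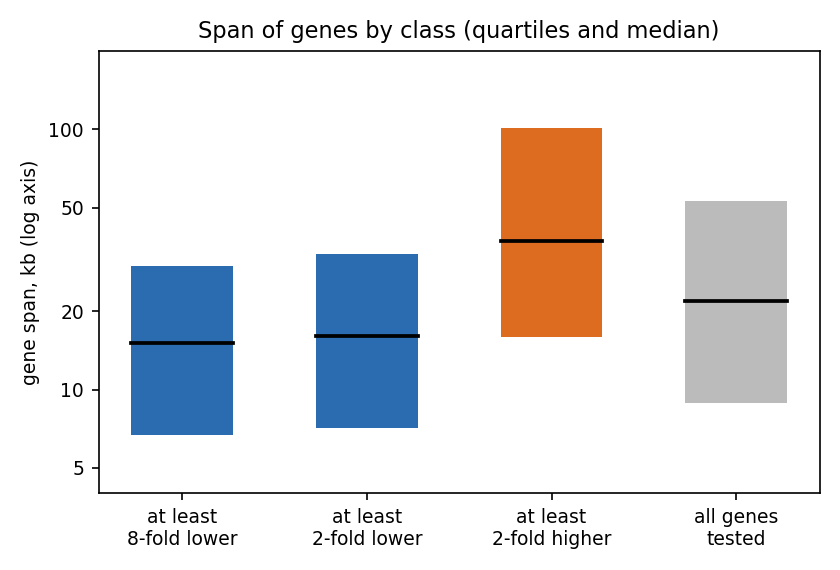
Span of genes in the genome in kb (logarithmic vertical axis) in 4 classes of genes, with the box from the first to the third quartile and the line at the median. The class that rose at least 2-fold has a median of 37.2 kb, and the classes that fell have medians of 15.1 and 16.1 kb. Scaled to the poly-A controls the class that rose holds 18 genes, with a median of 14.2 kb.

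Of the 15 largest rises named by rule, those of Dph6, an enzyme of diphthamide synthesis, and Mid1, a ubiquitin ligase of microtubules, came first, at 4.48 and 4.09 (poly-A scaled 2.75 and 2.61). Mid1 read 19.5, 23.2, 15.6 and 31.4 on the untreated arrays and 601, 589, 632 and 706 on the treated arrays, without overlap. Further down the same rises, Btbd2, of the BTB domain proteins, read 557, 465, 638 and 702 on the untreated arrays and 3689, 3983, 3323 and 4272 on the treated arrays. Rnf123, a ubiquitin ligase, read 168, 118, 207 and 219 on the untreated arrays and 1189, 1252, 1198 and 1316 on the treated arrays, and Tmem243, a membrane protein, read 165, 174, 217 and 227 on the untreated arrays and 1264, 1464, 1376 and 1312 on the treated arrays. No untreated array of these 3 genes reached the lowest treated array, and the changes were 2.67 ± 0.11 (SE), 2.73 ± 0.14 and 2.70 ± 0.12, or 0.84, 0.96 and 0.92 poly-A scaled (limma, adjusted p 5.81e-16, 5.87e-14 and 1.61e-15). Ccdc122, Rnf5 and Psg17 rose by 2.66, 2.66 and 2.65 (poly-A scaled 0.91, 0.94 and 0.92).

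Among the transcripts with the strongest signals Spin1, a chromatin reader of oocytes, went from 6745 ± 818 to 9949 ± 965 (0.56, poly-A scaled −1.28 and −0.09 with quantile normalization), Bcl2l10, an anti-apoptotic gene of oocytes, from 5096 ± 1044 to 9984 ± 710 (0.99, −0.86) and Tcl1, an activator of the kinase Akt, from 5301 ± 937 to 9964 ± 744 (0.92, −0.92). The cyclin-dependent kinase subunit Cks2 read 6219.7, 5503, 6969.7 and 6746 on the untreated arrays and 7179, 7001, 6547 and 6980.5 on the treated arrays and did not pass (0.13, adjusted p 0.205), with overlapping groups. ND5, a respiratory chain subunit encoded in mitochondrial DNA and copied by the mitochondrial RNA polymerase, read 6047, 5124, 6342 and 6644 on the untreated arrays and 10492, 12289, 9848 and 12819.6 on the treated arrays. It was higher on every treated array (0.91, poly-A scaled −0.94). Of the 10 strongest genes of untreated embryos 1 fell, Zfp622, a zinc finger protein of ribosome assembly, which read 5958, 5508, 6668 and 6980.2 on the untreated arrays and 1035, 417, 842 and 346 on the treated arrays, with no overlap (−3.35 ± 0.22, SE).

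The effect of amanitin differed between BCB and BBB embryos in 39 of 15274 genes (0.255%; limma interaction, adjusted p under 0.05), 29 with a lower value in BCB and 10 with a higher one, and 1230 genes had an unadjusted p under 0.05. The count was 18 without untreated BCB array 2 or 3, 22 without untreated BCB array 4 or untreated BBB array 3, 24 without untreated BBB array 4 and 15 with a pseudocount of 1. Pdgfrl, a PDGF receptor-like gene, changed by −3.86 in BCB embryos and entered the comparison through those arrays. In BBB embryos it lay below the array's 40th percentile on 7 of 8 arrays (means of 3.8 untreated and 11 treated), so no change in BBB embryos is read from it. Mbnl3, a splicing regulator, fell by 2.91 in BBB embryos, from 601 ± 73.2 to 69.8 ± 30, and by 1.31 in BCB embryos. The genes of this comparison, and Ubtf, Rrn3, Polr3g, Cstf2, Nxt1, Papola, Kpna4, Nup107, Prps2, Tyms, Odc1, Atp6ap2, Timm22, Aurkc, Ndc80, Rec8, Smc1b, Stag3, Igf2bp3, H1f8, Tet2, Zfp57, Cdh1, Fzd2, Clock, Arntl, Nr1d2, Gabpb1, Gabpb2 and Mycn, were chosen after their values were seen.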

How the data were processed

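Total RNA of two-cell embryos was read on one-colour oligonucleotide arrays, 4 per group. Per the labels' protocols the RNA was extracted and biotin-labelled with commercial kits. The deposited values are intensities on a linear scale, and their trimmed mean, leaving out 2% at each end, was found to be 150 on every array. The scaling step is not given in the sources used here, nor is the software. Of 45101 probe sets 64 are controls, and of the other 45037 the platform annotation gives 34945 a single gene symbol, 932 several and 9160 none. By Entrez identifier 34741 matched RefSeq.

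Values were tested on log2(intensity + 16) in limma 3.58.1 (R 4.3.3), with group means of all 16 arrays, an intensity trend and 12 residual degrees of freedom, so that the 4 groups share 1 estimate of the spread. Probe sets had to lie at or above the 40th percentile on at least 4 arrays, which left 31953. Where several tested probe sets shared a symbol, the one of highest mean over the 16 arrays stood for the gene. On simulated data for the BBB comparison (31953 probe sets, 50 changed per size) 86% of log2 changes of −3, 82% of −1, 84% of 1 and 100% of 3 were recovered. The simulation changed few probe sets and did not shift the array scale. Since both differ in these data, it checks the fit and does not give the recovery here. The number of arrays limits the precision.

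The 34 gene lists have 1076 entries, of which 1005 are on the array under a single symbol and 997 were tested. Members and lists were chosen with earlier results of these data known. Genes were named by rule, from the 15 largest falls and rises without overlap, the 10 highest intensities of each group and, in each list and role, the 3 largest called falls and rises and the 2 highest members. Genes outside it are listed in the paragraph on the comparison with BCB embryos. Clone names were left out. Array-level values were compared by exact permutation test, promoters and gene spans without a test, and protein length was not analysed here. Alternatives were other scalings, pseudocounts, filters, fits, a replicate block and left-out arrays.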

Additional observations from a re-analysis of the deposited data

Results flagged for a closer look

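In 19 of 404 groups of 4 BBB arrays, over the genes named in the report, 1 array stood apart from the other 3 by Dixon's gap at the 95% level, and chance sets apart about 1 in 20 such groups. The array stood above the others for Anp32e treated array 1 at 284 against 209.5 to 220, Cflar untreated array 3 at 121 against 103 to 104, Egfr treated array 4 at 2137 against 1711 to 1756, Epcam treated array 1 at 42 against 16.6 to 17.7, Gabpb1 untreated array 2 at 1675 against 1556 to 1568, Piwil1 untreated array 3 at 113 against 75.4 to 80.3, Prdx4 untreated array 1 at 1604 against 1271 to 1314, Uvrag untreated array 3 at 1676 against 1347 to 1396 and Xpot treated array 3 at 38.1 against 26.4 to 28 (intensity). It stood below the others for Casp8 treated array 1 at 225 against 319 to 327, Cstf1 treated array 3 at 43.3 against 56.4 to 59.1, Dusp7 untreated array 2 at 2756 against 2958 to 2997, Kpna1 untreated array 2 at 1328 against 1492 to 1504, Nr1d2 untreated array 4 at 169.8 against 211 to 218, Nup155 treated array 3 at 37.8 against 58 to 58.7, Nxt1 untreated array 3 at 1071 against 1118 to 1125, Pole3 untreated array 1 at 306 against 458 to 479, Spry2 treated array 3 at 2.5 against 7.8 to 8.7 and Ythdf3 treated array 3 at 2376 against 2648 to 2694. Leaving out the array that stood apart cost none of these genes its call.

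The effect of amanitin differed between BCB and BBB embryos, by the interaction in limma, for 2 genes named in the report. The effect in BCB minus that in BBB was 1.59 for Mbnl3 (adjusted p 0.038) and −4.33 for Pdgfrl (adjusted p 2.15e-10). Pdgfrl lay below the array's 40th percentile on 7 of 8 BBB arrays and passed the filter on low values through the BCB arrays, so its size in BBB embryos is not measured.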

How the results depend on the processing

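The scale of the arrays moved the counts most. Scaled to the poly-A controls 158 genes were higher and 12589 lower, with 9 and 911 of the 993 list members, and scaled to the hybridization controls 3210 were higher and 6669 lower, with 182 and 606 list members. Quantile normalization gave 6443 and 4565, and a shift to equal array medians 6334 and 4756. A test against a minimum change of 2-fold passed 1303 higher and 2531 lower genes and 78 and 289 list members, fewer since the threshold is stricter by construction. Pseudocounts of 1 and 64, both filters, the fit of the BBB arrays alone, no intensity trend and means of probe sets kept both counts within 1.5 times. Leaving out 1 BBB array at a time gave 5337 to 5571 higher and 4865 to 5024 lower genes, and 313 to 323 and 470 to 482 list members. Without untreated arrays 3 and 4 the counts were 5310 and 4696, with 309 and 468 list members. The replicate numbers did not pair the samples (same-number correlations of deviations −0.02 to 0.04), and with the replicate block the counts were 5632, 5040, 323 and 478, with 32 genes in the comparison with BCB. That comparison gave 15 genes with a pseudocount of 1, 58 with 64, 8 against a 2-fold minimum and 18 to 43 leaving out 1 array, the lowest being 18 without untreated BCB array 2 or 3, 22 without array 4, and 22 and 24 without untreated BBB array 3 or 4. The cause was not tested. Of 202 tested genes named in the report, leaving out 1 array cost the call of H1f8 and of Pdgfrl alone, the latter, which is near the bottom of the BBB arrays, without untreated array 3 (adjusted p 0.0853) or 4 (0.0624), and leaving out untreated arrays 3 and 4 together also that of Stag3. For genes that fell at least 8-fold, the shares of promoters with a motif moved within their exact 95% binomial intervals (counting error only). This held with a 4-fold class and with classes scaled to the poly-A controls, the ETS word moving to 21.6% and 22.2%. The median span was 15.5 kb in the 4-fold class. Scaled to the poly-A controls the class that rose at least 2-fold held 18 genes, 13 with a promoter, too few for its shares to be compared. Protein length was not run. Low intensities limit folds, since many treated values lie near the pseudocount of 16.

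The direction reversed for Cks2 (−0.49), Eif5a (−0.12), Oaz1 (−0.14) and Spin1 (−0.09) with quantile normalization and for Cks2 (−0.42), Eif5a (−0.05) and Oaz1 (−0.06) scaled to the hybridization controls. Scaled to the poly-A controls 50 named genes that were above 0 came to lie below it, with log2 changes of Arntl −0.94, Atg10 −0.05, Atp6v1f −0.09, Aurkc −1.23, Bcl2l10 −0.86, Bmp15 −0.39, Bmp6 −0.37, Cflar −0.29, Cks2 −1.72, Clock −1.08, Cnot4 −0.48, Cstf2 −1.11, Dazl −0.40, Dusp7 −0.51, Eif5a −1.34, Elk4 −0.40, Fars2 −0.53, Fmn2 −0.21, H1f8 −0.94, Igf2bp3 −0.43, Kpna7 −0.42, Lrp5 −0.35, Lrp6 −0.77, Mettl3 −0.68, ND5 −0.94, Oaz1 −1.35, Oaz2 −1.05, Obox2 −0.01, Obox5 −0.60, Orc2 −0.58, Pabpn1l −0.01, Pdgfrl −0.05, Pola1 −0.39, Polr3f −0.19, Polr3gl −0.29, Prps2 −0.70, Rec8 −0.19, Shmt2 −0.40, Slc2a1 −0.54, Slc6a6 −0.07, Slc6a9 −0.16, Smc1b −0.82, Spin1 −1.28, Spred1 −0.49, Tcl1 −0.92, Thoc2 −0.36, Timm21 −0.66, Uvrag −0.44, Ybx2 −0.04 and Zfp57 −0.50. No named gene that fell changed direction under the alternatives run. Both scalings to controls lower treated values relative to untreated ones, so a fall cannot reverse under them.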
